A study of Homo sapiens with 14 samples.

Results

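The apolipoproteins studied here are 10 genes, APOA1, APOA2, APOA4, APOB, APOC1, APOC2, APOC3, APOE, APOH and APOM. They were chosen by symbol from the 21574 rows of the deposited table of gene levels, and each has a row. APOC2 shares its row with APOC4 and with a readthrough transcript of both, so its values cannot be split. The cells are labelled HepG2, a line derived from a human hepatocellular carcinoma, and are described as stably transfected, either with scrambled siRNA (control) or with siADAR1, an siRNA against the RNA editing enzyme ADAR1 (KD). Neither group carries another listed treatment. The 14 libraries comprise 8 of PARS-seq, in which poly-A RNA was probed in vitro with S1 nuclease, which cuts unpaired bases, or RNase V1, which cuts paired bases, with 2 replicates per nuclease and condition. A further 2 are RNA-seq libraries, 1 per condition, and 4 are Ribo-seq libraries of ribosome footprints, 2 per condition.

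Apolipoproteins are the protein coat of the particles that carry cholesterol, triglycerides and phospholipids in blood. APOB is the large, non-exchangeable scaffold of very low density and low density lipoproteins, while APOA1 and APOA2 are the main proteins of high density lipoproteins. The small C apolipoproteins and APOE move between particles, where they steer lipolysis and receptor uptake. Hepatocytes are the main source of most of these proteins, and HepG2 cells are widely used as a source of secreted apolipoproteins.

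The members lie at 6 places in the genome, given here on hg19, the build of the deposited values, with gene bounds from the GENCODE annotation. APOA4 (chr11:116691416-116694020), APOC3 (chr11:116700422-116703788) and APOA1 (chr11:116706467-116708338) form a cluster, with APOC3 on the forward strand and the other members on the reverse strand. APOE (chr19:45409048-45412650), APOC1 (chr19:45417504-45422606) and APOC2 (chr19:45449292-45452822) form another, all on the forward strand. APOA2 (chr1:161192082-161193421), APOB (chr2:21224301-21266945) and APOH (chr17:64208151-64252643) are on the reverse strand, and APOM (chr6:31620193-31625987) is on the forward strand. The canonical APOB transcript has 29 exons, that of APOH 8 and that of APOM 6, and the other members have 3 or 4. Reads were counted over exons with no strand setting in the stated command. Reads of APOM and of BAG6, which overlaps it on the opposite strand, can therefore not be told apart where they overlap, and opposite-strand genes are also annotated over APOA1, APOA2, APOA4 and APOB. On the same strand, an unnamed locus overlaps both APOE and APOC1, and the readthrough gene APOC4-APOC2 overlaps APOC2.

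Levels are RPKM, that is, reads scaled to transcript length and to library depth. The table holds 1 column for each RNA-seq and Ribo-seq library and, for each PARS-seq replicate, a value that the authors averaged over its nuclease libraries (S1 and V1). Multiplied by transcript length, the values step in whole reads, which gave the read total that each column was scaled to and the number of reads behind each value. All 36 member values above 0 were within 0.0001 of a whole number of reads. The length of each member was fitted for this, near its annotated length or, for the merged APOC2 row, over a wider range. This closeness is thus no separate check of the read numbers. By these steps, the PARS-seq columns were scaled to about 116000000 to 157000000 reads, RNA-seq to 40700000 (control) and 30200000 (KD), and Ribo-seq to 996000 to 3320000. These totals are implied by the scaling, and for each PARS-seq replicate the paper lists more uniquely aligned reads. ADAR, the targeted gene, was at 40.7 and 46.8 RPKM in the PARS-seq control columns against 15.1 in both KD columns, and at 54.8 RPKM in RNA-seq control against 15.4 in KD. In Ribo-seq it was at 43.6 and 55.5 RPKM in control, at 8.73 in KD 1 and at 44 in the library labelled KD 2, which thus lies among the control values.

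The hepatocyte markers went against the cell label. Of 26 listed markers, 2 reached 1 RPKM in RNA-seq control, where 50.7% of all genes did. These were CPS1 (53.8 RPKM, in a row merged with CPS1-IT1), an enzyme of the urea cycle, and VTN (28.7 RPKM), which encodes the plasma protein vitronectin. Albumin (ALB) was listed at 0 in RNA-seq control and at 0.0442 RPKM in KD, and alpha-fetoprotein (AFP) and transthyretin (TTR) were listed at 0 in both RNA-seq libraries and in all 4 Ribo-seq libraries. The highest AFP value of any column was 0.0286 RPKM, in PARS-seq. Of 14 epithelial markers 7 reached 1 RPKM in RNA-seq control, among them KRT7 (675 RPKM), KRT8 (410 RPKM) and KRT18 (311 RPKM), and 8 of 10 mesenchymal, 4 of 8 neural, 2 of 16 erythroid and 0 of 15 leukocyte markers did. All 8 housekeeping genes were above 1 RPKM in every column, with ACTB at 3234 RPKM and TBP at 7.07 RPKM in RNA-seq control. The apolipoprotein values below belong to these libraries as labelled.

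Most apolipoprotein genes had few or no reads in any assay, and APOE, APOA2 and APOC1 were the members read in every PARS-seq column. Of 100 member values (10 genes in 10 columns), 64 were listed at 0. No member reached 1 RPKM in RNA-seq, and 6 of 10 were at 0 in each RNA-seq library, where 25.7% (control) and 24.7% (KD) of all genes were. Over the whole table the members gathered 884 reads, 809 of them in PARS-seq, 70 in RNA-seq and 5 in Ribo-seq. APOE took 80.9% of these reads, APOA2 8.26% and APOC1 7.01%. Of the other members, 6 had at most 3 reads in any column, and the merged APOC2 row had at most 4.

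**Figure D1:**
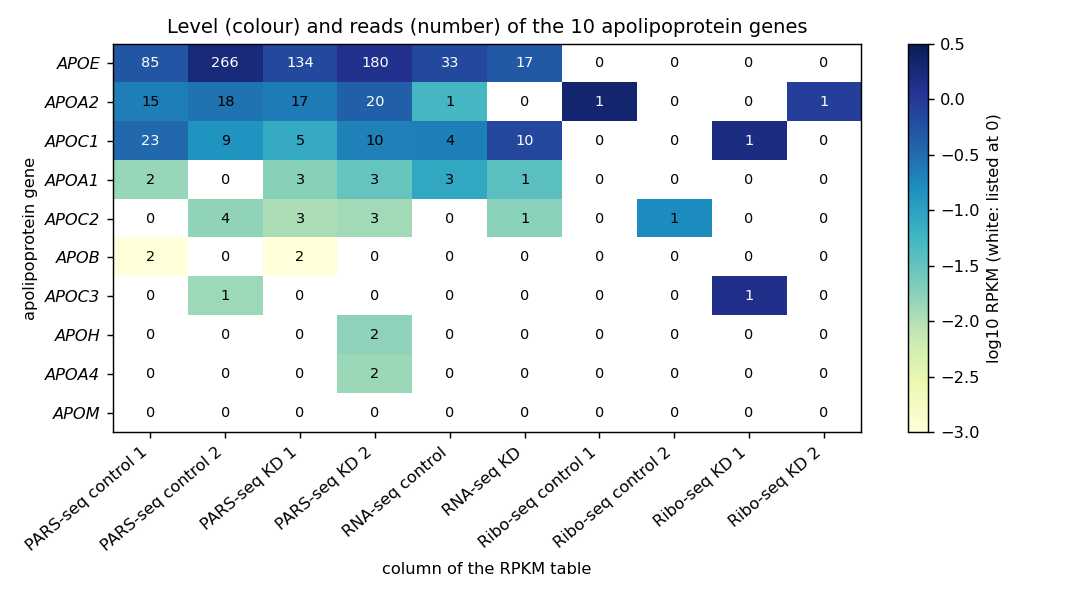
Level and read number of each apolipoprotein gene (rows, ordered by total reads) in each column of the RPKM table. Colour gives log10 RPKM, with white for values listed at 0, and the number in each cell gives the reads. APOE holds 715 of the 884 reads, and every filled Ribo-seq cell rests on 1 read.

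APOB, the scaffold of low density lipoproteins, had 4 reads in all. It was at 0.001 RPKM in PARS-seq control 1 and at 0.000924 RPKM in PARS-seq KD 1, each from 2 reads, and was listed at 0 in the other 8 columns. Its transcript is 14121 bases long. APOH, a phospholipid-binding plasma glycoprotein, had 2 reads in all, both in PARS-seq KD 2 (0.0167 RPKM). APOB and APOH were thus listed at 0 in every RNA-seq and Ribo-seq library.

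Among the proteins of high density lipoproteins, APOA1 was at 0.0821 RPKM in RNA-seq control (3 reads) and at 0.0369 RPKM in KD (1 read). In PARS-seq it was at 0.0148 and 0 RPKM in control and at 0.0186 and 0.0308 RPKM in KD, from 2 and 6 reads per condition. APOA1 was listed at 0 in all Ribo-seq libraries. APOA2 was more even in PARS-seq, at 0.221 and 0.276 RPKM in control and at 0.232 and 0.399 RPKM in KD, with 15 to 20 reads in each column. In RNA-seq, APOA2 had 1 read in control (0.0519 RPKM) and 0 in KD. APOM, which carries sphingosine-1-phosphate on these particles, was listed at 0 in all 10 columns.

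The small exchangeable members differed among themselves. APOC1, which slows lipoprotein clearance, was at 0.346 and 0.138 RPKM in PARS-seq control and at 0.077 and 0.207 RPKM in KD, so that the conditions overlapped. Its RNA-seq level was 0.213 RPKM in control (4 reads) and 0.718 RPKM in KD (10 reads). APOC1P1, a pseudogene copy of APOC1, was listed above 0 in 3 columns and at most at 0.0261 RPKM. The row of APOC2, the activator of lipoprotein lipase, held 10 PARS-seq reads, 1 RNA-seq read in KD and 1 Ribo-seq read in control 2. APOC3, an inhibitor of lipolysis, had 1 PARS-seq read in control 2 and 1 Ribo-seq read in KD 1. APOA4, an apolipoprotein made chiefly by the intestine, had 2 reads, in PARS-seq KD 2 (0.0137 RPKM).

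APOE, the ligand through which remnant particles bind their receptors on cells, was the most read member. It was at 0.509 RPKM in PARS-seq control 1 (85 reads), 1.72 in control 2 (266 reads), 0.692 in KD 1 (134 reads) and 1.26 in KD 2 (180 reads). In RNA-seq it was at 0.687 RPKM in control (33 reads, exact 95% Poisson interval 0.473 to 0.964) and at 0.477 RPKM in KD (17 reads, 0.278 to 0.764). These intervals cover counting error only. Between 44.7% and 52.8% of all genes lay below APOE in these 6 columns, so it sat near the middle of the table, where the median RNA-seq control level was 1.08 RPKM. APOE was nevertheless listed at 0 in all 4 Ribo-seq libraries.

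The 2 replicates of PARS-seq differed more for APOE than the conditions did. The replicate 2 column was 3.38 times the replicate 1 column in control and 1.83 times in KD, whereas the median gene had ratios of 0.972 and 0.999. Of 11153 genes with a mean of at least 1 RPKM in PARS-seq, 36 (0.323%), APOE among them, had ratios of at least 1.83 in both conditions. PLTP, the phospholipid transfer protein of plasma, had similar ratios (3.52 in control and 1.88 in KD) and was chosen for mention after its values were seen. It was at 458 and 1613 RPKM in PARS-seq control and at 1094 and 2055 RPKM in KD, while the RNA-seq libraries held it at 5.51 (control) and 4.93 RPKM (KD). The summed level of the 15 leukocyte markers moved the same way, at 0.604 and 1.41 RPKM in control and 0.599 and 1.15 RPKM in KD, mostly through CD14 (0.324, 1.02, 0.417 and 0.944 RPKM in the same order). Without CD14 the sums were 0.28, 0.393, 0.182 and 0.204 RPKM. Of the leukocyte markers 4 were higher and 1 lower in replicate 2 of both conditions. PTPRC, which marks all leukocytes, was at most at 0.00398 RPKM in PARS-seq. The rise was not particular to leukocyte markers. The hepatocyte markers HPX (0.0348, 0.182, 0.0379 and 0.132 RPKM) and ASGR1 (0.0382, 0.269, 0.126 and 0.201 RPKM) rose as well. RBP4, of the same list, fell (0.0689, 0.0323, 0.0502 and 0.0353 RPKM). These 3 were picked after their values were seen. The part of any such cells in the APOE values was not tested.

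**Figure D2:**
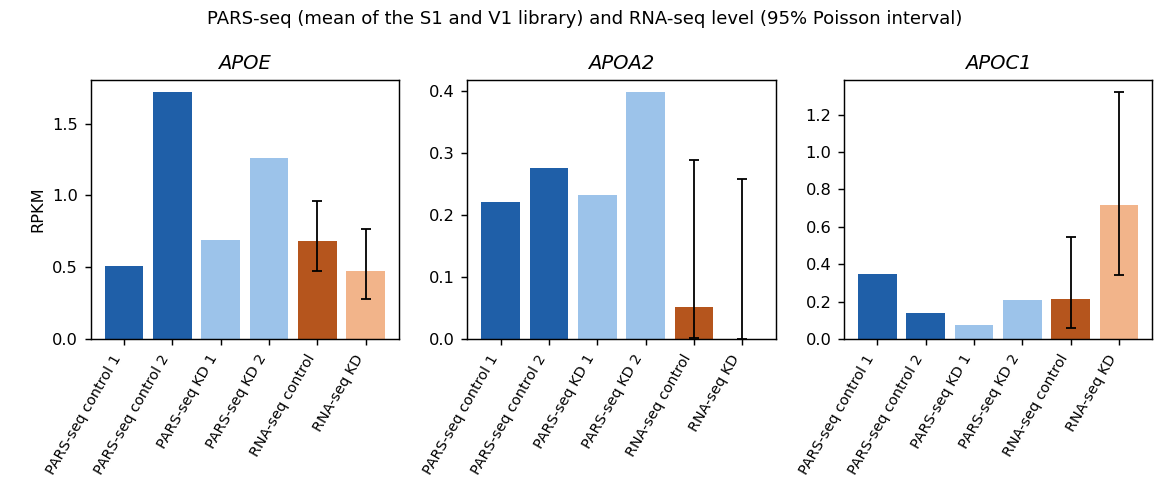
RPKM of APOE, APOA2 and APOC1 in the 4 PARS-seq columns (blue, averaged by the authors over S1 and V1) and the 2 RNA-seq libraries (orange, with exact 95% Poisson intervals, paler for KD as in PARS-seq). Each panel has its own linear axis from 0. APOE was above 1 RPKM in PARS-seq control 2 (1.72) and KD 2 (1.26), and the RNA-seq intervals of control and KD overlap in every panel.

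The start regions of the 3 most read members are shown since the few member reads came mostly from these genes. Each is a stretch of 300 bases around a RefSeq transcription start (GRCh38.p14), written 5′ to 3′ on the gene's strand. APOE has 3 listed starts, of which the first is printed (chr19:44905546-44905845, forward strand), followed by APOC1 (chr19:44914422-44914721, forward strand) and APOA2 (chr1:161223579-161223878, reverse strand). Capitals mark matches on either strand to the TATA box core, spelled TATAA, and to the GC box, which was searched as the letters GGGCGG.
APOE: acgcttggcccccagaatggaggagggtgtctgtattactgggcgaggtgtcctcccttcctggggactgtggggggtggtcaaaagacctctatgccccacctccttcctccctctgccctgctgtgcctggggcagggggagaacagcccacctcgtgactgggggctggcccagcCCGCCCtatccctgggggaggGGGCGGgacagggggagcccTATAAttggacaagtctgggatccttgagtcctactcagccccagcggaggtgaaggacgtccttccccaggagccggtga
APOC1: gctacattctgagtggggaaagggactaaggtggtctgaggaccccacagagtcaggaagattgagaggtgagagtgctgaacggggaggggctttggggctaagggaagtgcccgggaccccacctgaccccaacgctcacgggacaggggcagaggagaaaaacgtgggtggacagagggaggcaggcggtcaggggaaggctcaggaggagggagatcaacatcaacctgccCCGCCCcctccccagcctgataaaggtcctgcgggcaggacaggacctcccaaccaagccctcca
APOA2: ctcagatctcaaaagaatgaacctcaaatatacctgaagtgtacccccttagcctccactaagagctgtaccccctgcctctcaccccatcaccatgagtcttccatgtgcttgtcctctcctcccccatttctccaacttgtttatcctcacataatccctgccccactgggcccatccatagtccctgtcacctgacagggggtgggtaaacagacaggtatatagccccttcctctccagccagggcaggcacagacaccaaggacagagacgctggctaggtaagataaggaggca
The APOE window holds TATAA with its first base at position -31 from the start and a GC box on each strand, at -51 and -72. The APOC1 window holds a GC box on the reverse strand at -15, and the APOA2 window holds none of the searched motifs. Over 35116 promoters of the same length, 20.4% held the TATA box core and 45% held the GC box. The nuclear receptor element AGGTCA, also searched on both strands, was in 13.8% of those promoters and in none of the windows printed here. These matches describe letters in the windows and no binding.

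Few ribosome footprints of the members were read. Of 40 Ribo-seq values, 5 were above 0, each from 1 read. They were APOA2 in control 1 (2.12 RPKM) and in the library labelled KD 2 (0.879 RPKM), the APOC2 row in control 2 (0.165 RPKM), and APOC1 (1.54 RPKM) and APOC3 (1.34 RPKM) in KD 1. The values of 1 RPKM or more in Ribo-seq are thus what 1 read is worth in the shallower libraries. For APOE, the level that 3 reads would give was 2.55 RPKM in control 1, 0.765 in control 2, 1.81 in KD 1 and 1.06 in the library labelled KD 2. Its RNA-seq levels, 0.687 RPKM in control and 0.477 RPKM in KD, lie below the 3-read level of each Ribo-seq library.

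No Ribo-seq to RNA-seq ratio could be formed for a member. The ratio was taken over 8937 genes at 1 RPKM or more in all 6 libraries, and 0 of 10 members were among them. Over those genes its median was 0.785 in control 1, 0.612 in control 2, 0.798 in KD 1 and 0.725 in the library labelled KD 2. At these medians, the RNA-seq level of APOE would correspond to 0.634, 1.65, 0.631 and 0.98 reads in the same order, where 0 were seen in each. For APOC1 the same product was between 0.0768 and 0.577 reads, where 1 was seen, in KD 1. For APOA2 it was 0.0192 and 0.0499 reads in control and 0 in KD, where 1 read was seen in control 1 and 1 in the library labelled KD 2.

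The comparison of KD with control asks whether ADAR1 silencing moved apolipoprotein levels. No member could be called changed in any assay. In RNA-seq no member passed the filter on low values, a mean of 1 RPKM, under which 4.47% of 10946 genes were past 1.5 fold higher in KD and 4.66% lower. APOE was at 0.695 times its control level, with an exact 95% interval of 0.362 to 1.28 from 33 and 17 reads. APOC1 was at 3.37 times its control level, with an interval of 0.97 to 14.7 from 4 and 10 reads. Both intervals include no difference, and they compare single libraries, not conditions. The 10 members summed to 1.03 RPKM in the RNA-seq control library and to 1.25 RPKM in the KD library, which is 1.21 times as much (95% interval 0.717 to 2.04, a normal approximation on the log scale from the reads of each member). Their pooled reads, 41 and 29, scaled to library depth but not to transcript length, gave 0.952 times (exact interval 0.57 to 1.57), a setting chosen after seeing the data, so the direction is not settled. Without APOE, the ratio of the sums was 2.23, and APOC1 gave 10 of the 12 KD reads left.

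In PARS-seq, 1 member passed the filter. This was APOE, whose KD mean was 0.877 times its control mean, and whose KD values both lay between the control values. Under the same filter, 8.11% of 11153 genes were past 1.5 fold higher in KD without overlap between the conditions and 8.43% lower. For APOA2 the KD mean was 1.27 times the control mean and for APOC1 0.587 times, and the conditions overlapped for both. APOA1 had 2 reads in control and 6 in KD, did not pass the filter, and is not read as a change. The summed level of the members was 1.09 and 2.16 RPKM in control and 1.03 and 1.94 RPKM in KD, whose mean was 0.913 times that of control. No test was made on these averaged values.

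In Ribo-seq, limma with a mean trend was fitted to log2(RPKM + 1) of the 4 libraries over 10882 genes with a mean of at least 1 RPKM, and 0 of 10 members were among them. At a Benjamini-Hochberg adjusted p under 0.05 by limma, without a replicate block, 0% of these genes were called higher and 0% lower, with 43 genes at an unadjusted p under 0.05. This result depends on the model. With a replicate block, limma called 85 genes higher and 58 lower, and libraries with the same number deviated together (correlation 0.811). The replicates share only a number, so it is not settled which fit applies. Without the library labelled KD 2, in which ADAR lies among its control values, limma called 24 genes lower and 0 higher. Without the filter, APOA2, APOC1, APOC2 and APOC3 entered, each through 1 or 2 single reads, and limma gave each an adjusted p of 1. The summed member levels rest on 2 reads in control and 3 in KD, so no ratio is given. With 2 libraries against 2, an exact two-sided permutation test cannot give a p below 0.333. The paper calls the Ribo-seq replicates biological, but nothing in the labels says whether they came from separate cultures. All such values measure the spread between these libraries.

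The genes beside the members differed in level from place to place. TOMM40, which encodes a mitochondrial import channel and starts 15222 bases before APOE, was at 113 RPKM in RNA-seq control, and CLPTM1, on the other side of the cluster, was at 92.4 RPKM. Of the 5 nearest protein-coding genes with a row on each side of the APOE, APOC1 and APOC2 cluster, 9 of 10 reached 1 RPKM. SIK3, a kinase gene next to APOA1, was at 8.93 RPKM and ZPR1, a zinc finger gene on the other side of the cluster, at 23.4 RPKM, while APOA5, which lies between ZPR1 and APOA4, was listed at 0 in both RNA-seq libraries. Beside APOA2, TOMM40L was at 17.5 RPKM. Beside APOH, 3 of 10 neighbours reached 1 RPKM in RNA-seq control, with a median of 0.362 RPKM. The contrast depends on the window. With 20 genes on each side, 20 of 40 neighbours of APOH reached 1 RPKM (median 1.12 RPKM). In that window 18 of 38 did for APOA1, APOC3 and APOA4 (median 0.376 RPKM), and 24 of 40 for APOE, APOC1 and APOC2 (median 3.13 RPKM).

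The 0 of APOM stands beside many other rows at 0. Of the 20 nearest protein-coding genes with a row on each side of APOM, 39 rows in all, 29 (74.4%) were listed at 0 in all 10 columns, against 6.35% of the 18219 protein-coding genes placed by symbol. They include CSNK2B, the regulatory subunit of casein kinase 2, which most cell types express. BAG6, a chaperone gene that overlaps APOM, was at 31.5 and 38.9 RPKM in PARS-seq control and at 25.2 and 31.9 RPKM in KD, but was listed at 0 in every RNA-seq and Ribo-seq library. PRRC2A, the next gene on that side (in a row merged with SNORA38), was at 20.8 to 34.6 RPKM in PARS-seq and likewise at 0 in the other assays. RXRB, a nuclear receptor gene that also lies on chromosome 6, was listed at 0 throughout as well. For the other members, between 1 and 4 of 38 to 40 such neighbours were at 0 in every column.

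**Figure D3:**
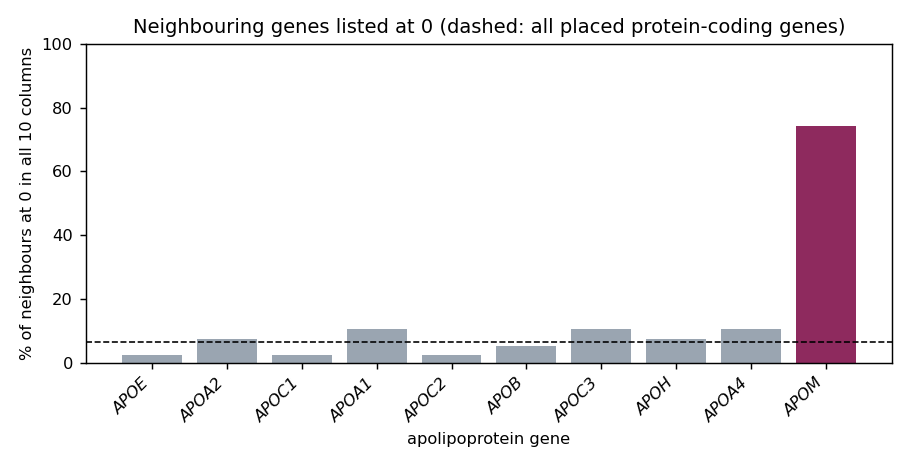
Share of the nearest protein-coding genes (up to 20 with a row on each side) that were listed at 0 in all 10 columns, for each apolipoprotein gene. The dashed line is the share over all placed protein-coding genes (6.35%). The bar of APOM stands at 74.4%.

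Many genes that assemble, bind and remodel lipoproteins were at 1 RPKM or more in RNA-seq control, a level that none of the 10 apolipoproteins reached there. Of 102 rows in 7 lists of such genes (1 of them the APOC2 row), 60 were at 1 RPKM or more in RNA-seq control. The shares of the single lists lay on both sides of that of all genes, and were not tested against it. Of all genes, 50.7% were at 1 RPKM or more in this library. Among other genes named as apolipoproteins, 5 of 14 were, led by CLU (206 RPKM), which encodes the extracellular chaperone clusterin, APOL2 (21.1 RPKM) and APOO (16.8 RPKM), a mitochondrial protein. APOA5, APOD, APOF and LPA were all below 0.1 RPKM in RNA-seq control. Of the assembly and secretion genes 13 of 17 were, led by P4HB (706 RPKM), the small subunit of the microsomal triglyceride transfer protein and a disulfide isomerase, CANX (115 RPKM), a chaperone, and SURF4 (95.3 RPKM), a cargo receptor. MTTP, the large subunit of that transfer protein, which loads lipid onto APOB, was listed at 0 in both RNA-seq libraries and in Ribo-seq and was at most at 0.0179 RPKM in PARS-seq.

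Receptors were the list with the highest share, 15 of 18 rows. SCARB1, the receptor of high density lipoproteins, was at 193 RPKM in RNA-seq control. Of the lipases, transfer proteins and enzymes, 6 of 15 measured rows reached 1 RPKM, led by FURIN (94.9 RPKM), PON2 (59 RPKM) and LCAT (14.2 RPKM, in a merged row), while hepatic lipase (LIPC) was at 0.0459 RPKM. Of the sterol export genes 4 of 8 did, led by NPC2 (65.2 RPKM, in a merged row), STARD3 (30.6 RPKM) and NPC1 (9.71 RPKM), and ABCA1, which loads cholesterol onto APOA1, was at 0.0164 RPKM. Of 26 transcription factors known to act on apolipoprotein genes 15 did. SREBF2 (133 RPKM) and SREBF1 (118 RPKM), both in merged rows, and NR1H2 (101 RPKM) led them, while HNF4A (0.462 RPKM, in a merged row), FOXA2 and NR1H4 (both listed at 0) did not reach 1 RPKM. Of the factors that edit APOB mRNA, SYNCRIP (14 RPKM) and RBM47 (5.68 RPKM, in a merged row) were present, A1CF was at 0.0103 RPKM and the deaminase APOBEC1 was listed at 0 in every column.

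**Figure D4:**
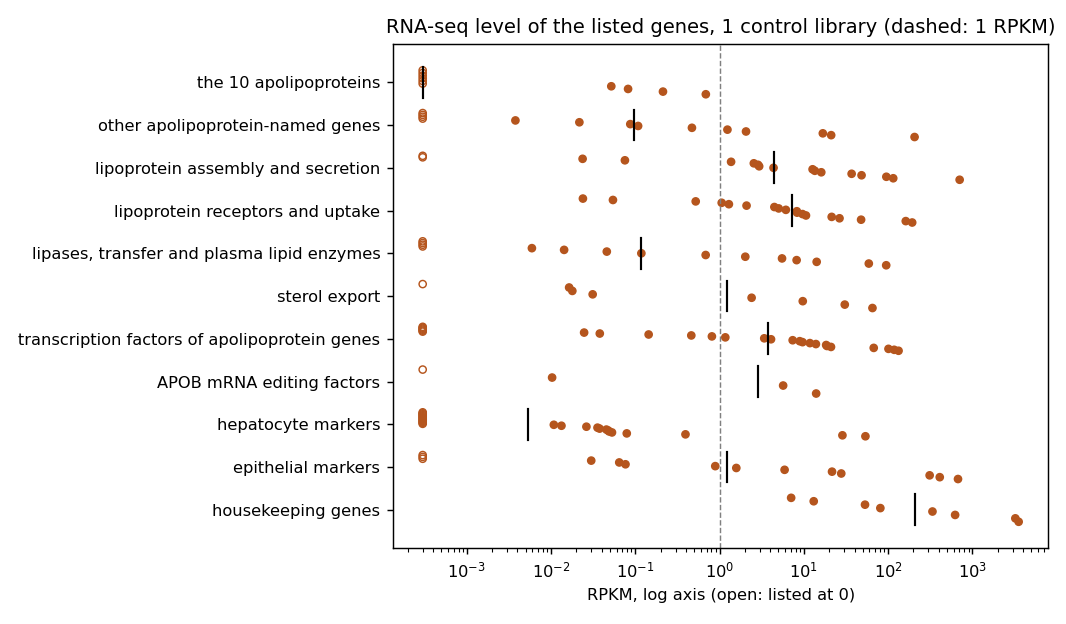
RNA-seq level in the control library of the 10 apolipoproteins, the 7 lists of lipoprotein genes, 2 marker lists and the housekeeping genes. Each point is a row of the table on a log axis of RPKM, open points at the left edge are listed at 0, black bars are medians and the dashed line is 1 RPKM. None of the 10 apolipoproteins passes the line, and 2 of 26 hepatocyte markers do.

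Few of these lipoprotein genes were past the thresholds between KD and control. In Ribo-seq 56 rows were tested and 0 passed by limma, where the background in this fit was 0% in either direction, and 0 had an unadjusted p under 0.05. With a replicate block, where limma called 85 genes higher and 58 lower, 0 of 56 rows passed and 3 had an unadjusted p under 0.05. Without the library labelled KD 2, 0 of 56 rows passed as well. Their log2 fold changes ranged from -1.07 for FURIN to 0.95 for SAR1B, with a median of -0.03 beside 0.08 over all genes tested. In RNA-seq, 2 of 60 rows were past 1.5 fold higher and 2 lower, beside 4.47% and 4.66% of all genes. In PARS-seq, 4 of 56 were higher without overlap and 3 lower, beside 8.11% and 8.43%. These shares are near or below the background.

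The rows past these folds were named after their values were seen. PON2, a lactonase of intracellular membranes, was lower in KD in both assays. It was at 59 RPKM in RNA-seq control and 31.7 in KD, and at 272 and 197 RPKM in PARS-seq control against 105 and 81.1 in KD. In Ribo-seq PON2 was at 160 and 78.4 RPKM in control, at 71.9 in KD 1 and at 84.7 in the library labelled KD 2, so the conditions overlapped (log2 fold change -0.52, SE 0.60, adjusted p = 1 by limma). DGAT2, which makes triglyceride, was higher in both, at 2.95 RPKM in RNA-seq control and 4.95 in KD, and at 0.755 and 1.03 RPKM in PARS-seq control against 2.43 and 3.79 in KD. In Ribo-seq DGAT2 was at 0.409 and 2.33 RPKM in control, at 1.74 in KD 1 and at 2.71 in the library labelled KD 2, so the conditions overlapped (log2 fold change 0.56, SE 0.59, adjusted p = 1 by limma). SAR1B, a GTPase of the vesicles that carry lipoprotein particles out of the endoplasmic reticulum, was at 5.18 and 4.56 RPKM in PARS-seq control and 11.7 and 10.6 in KD. Its Ribo-seq values were 6.19 and 4.34 RPKM in control, 12.2 in KD 1 and 9.81 in the library labelled KD 2, which do not overlap (log2 fold change 0.95, SE 0.41, adjusted p = 1 by limma). The other rows past the folds were ANGPTL4 (higher) and APOBR (lower) in RNA-seq, and NR2F2 and SREBF1 (higher) and LIPA and FOXA1 (lower) in PARS-seq.

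**Figure D5:**
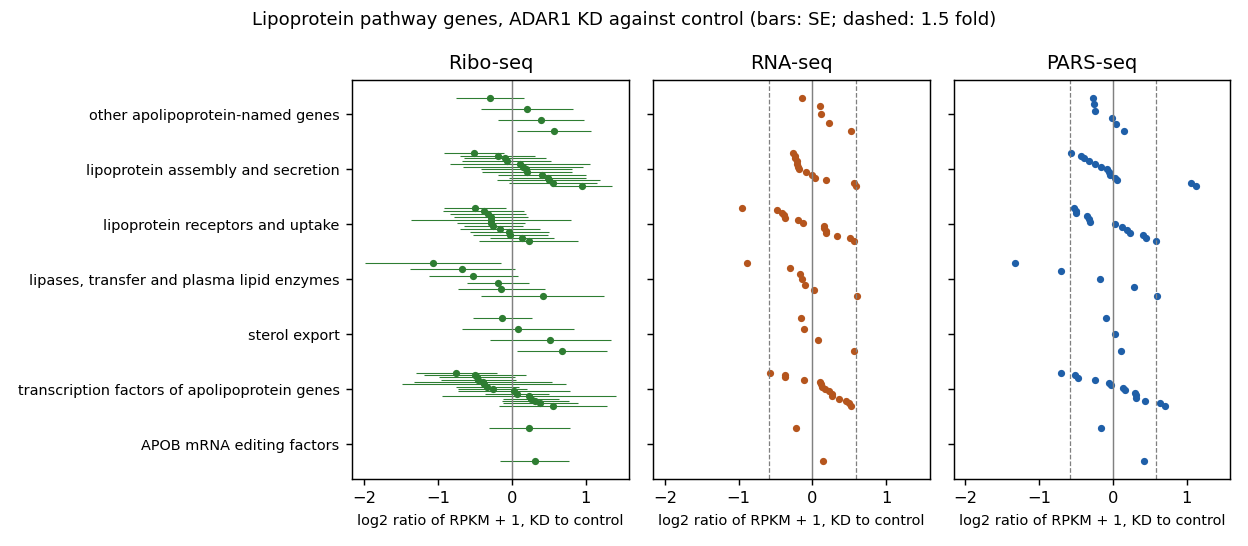
Log2 ratio of RPKM + 1 of KD to control for the rows of the 7 lists of lipoprotein genes that passed the filter on low values in each assay. Ribo-seq points carry the standard error of limma, dashed lines mark 1.5 fold, and RNA-seq and PARS-seq points have no test. SAR1B and DGAT2 are the PARS-seq points above 1, and PON2 is the PARS-seq point below -1.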

How the data were processed

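The 10 apolipoproteins and all gene lists were chosen with earlier results of these data known. For every library the authors aligned reads to hg19 with bowtie2 in local mode, kept unique alignments, counted those on exons of RefSeq genes with coverageBed, and deposited a single table of RPKM. Tool versions are not given in the sources used here. The deposited PARS-seq files of read starts per transcript base were not used, since they name transcripts by identifiers that are not paired with member symbols, and tracks in genome coordinates were not analysed here. RPKM times transcript length gave whole reads and the read total that each column was scaled to, with member lengths fitted to give whole reads.

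Ribo-seq was tested with limma 3.58.1 (R 4.3.3) on log2(RPKM + 1), with a mean trend, a filter of a mean of 1 RPKM and Benjamini-Hochberg adjustment, and the script was tested on simulated data. RNA-seq and PARS-seq folds past 1.5 have no test. The text names all members and, from each lipoprotein list, the 3 genes highest in RNA-seq control, except some that are not reported here. Genes whose pattern is like that of a member were to be named for members at 1 RPKM in more than 5 of the 10 columns, and no member is. Positions came from GENCODE on hg19, promoters from RefSeq, and older symbols of neighbours from RefSeq. Alternatives varied pseudocount, filter, scaling, pairing and replicates. Python 3.11.15 with numpy 2.4.6, pandas 2.3.3, scipy 1.17.1 and matplotlib 3.10.9 was used.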

Additional observations from a re-analysis of the deposited data

How the results depend on the processing

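Of 64 alternatives, 48 left the count or ratio near the value reported, and 16 moved it. At lower minimums the members counted in RNA-seq control rose from 0 to 1 at 0.5 RPKM, 2 at 0.1 RPKM and 4 at any value above 0, those in both PARS-seq control columns from 0 to 1, 3 and 3, and the hepatocyte markers from 2 to 13 at any value above 0. Without APOE the RNA-seq ratio of member sums was 2.23. With a pseudocount of 0.1, 773 genes were lower in RNA-seq. At 2 fold, 89 genes were higher and 100 lower in RNA-seq, and 170 higher and 297 lower in PARS-seq. Replicates of Ribo-seq share only a number. With a replicate block, limma called 85 genes higher and 58 lower in KD, none of them a lipoprotein gene, and libraries with the same number deviated together (correlation 0.811 over 10882 genes). Leaving out each Ribo-seq library in turn gave 0 to 24 genes lower, with 24 without the library labelled KD 2, in which ADAR is at its control level, and 0 higher. The arm left with 1 library is then assumed to vary like the other. Leaving out each PARS-seq column gave ratios of member sums of 0.634 to 1.36. The Ribo-seq ratio of member sums was not formed, since it would rest on 2 and 3 reads. Most member values above 0 rest on 3 or fewer reads, those of APOE in PARS-seq and RNA-seq and of APOA2 in PARS-seq on 15 or more, and the cause of the differences between settings was not tested.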
